A study of Mus musculus with 2 samples.

Results

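The genes of the striated muscle contractile apparatus and its assembly were followed in the mouse mandibular prominence, the embryonic swelling that forms the lower jaw and carries the early tongue. The set was given as a list of 46 gene symbols, and all 46 occur among the 30723 gene symbols of the deposited tables. The comparison is between 1 library of control embryos and 1 library of Kif3a f/f ; Wnt1-Cre embryos, in which the floxed gene of a motor subunit needed for primary cilia is deleted by a Cre recombinase active in the neural crest. Each library was made from the pooled prominences of 10 embryos on a mixed (CD1) background, and the labels place both at E11.5. The control group's alleles are not stated in the labels. In the names of the deposited tables the control is marked e11.5 and the mutant e11, and the runs are numbered differently, so stage and run cannot be told apart from genotype.

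Striated muscle contracts when myosin thick filaments pull on actin thin filaments within the sarcomere. Calcium released from the sarcoplasmic reticulum binds troponin, which shifts tropomyosin and exposes the actin. The muscle cells of the jaw and tongue come from mesoderm and lie outside the lineage of Wnt1-Cre, while the connective tissue around them comes from the neural crest. Myoblasts first express regulators such as Myod1 and Myog, then fuse and switch on embryonic myosins, troponins and acetylcholine receptor subunits. The developing heart shares part of this gene set, so the members were divided by textbook use into 23 skeletal genes, 19 genes shared by skeletal and heart muscle, and 4 cardiac genes.

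Levels are FPKM, fragments per kilobase of transcript scaled to the mapped fragments of the library, summed over the transcripts of a gene. By the deposited coverage, the control library holds approximately 24700000 fragments and the mutant library 24500000. With 1 library per group no test between genotypes exists, so differences are given as ratios with a 95% counting interval (exact Clopper-Pearson on these approximate fragments), which covers neither embryos nor library preparation. Kif3a itself stood at 11.46 FPKM in control and 5.39 in mutant tissue, a value that includes cells outside the Cre lineage and the part of the transcript that is not deleted. Markers of the mandibular mesenchyme were abundant in both libraries, with Prrx1 at 143 and 165 FPKM and Hand2 at 89.9 and 67.4.

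Muscle genes were low in this tissue and most were lower in the mutant. Their summed level was 72.6 FPKM in control and 32.8 in mutant tissue, 0.451 of the control. The sum over all genes was also lower in the mutant, at 713934.5 and 474704.3 FPKM, 0.665 of the control. Much of that gap came from very short transcripts. Without those under 200 bases the mutant sum was lower by 0.27 (log2). The median ratio of all genes with 10 or more fragments was 0.906. Summed by use, the skeletal genes stood at 26.7 and 9.80 FPKM, the shared genes at 44.99 and 21.5, and the cardiac genes at 0.986 and 1.45. The most abundant members were the tropomyosin gene Tpm2, the actin gene Actc1, the slow troponin T gene Tnnt1 and the desmin gene Des. Together they made up 68.4% of the summed level of the members in the control and 69.3% in the mutant. In such bulk tissue, fewer muscle cells and less muscle RNA per cell cannot be told apart.

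Of the 46 members, 10 reached 1 FPKM in the control and 5 did so in the mutant. Myl2, Ckm and Smpx were listed at 0 in both libraries, 6 others gave fewer than 10 fragments over both libraries, and 37 gave 10 or more. A member can enter this last group by its control level alone, so the counts over it describe the libraries. Of the 37, 33 were below the control level in the mutant, where 64.6% of all 15856 genes with as many fragments were. At or below 0.5 of the control stood 22 of the 37, against 5.75% of all such genes, and 0 stood at 2-fold or more, against 4.41%. The median ratio of the 37 was 0.398 (the 2 members listed at 0 in the mutant taken as lowest) and that of all such genes 0.906.

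Low levels scatter more, so the members were also read against genes of their own range. Above a mean of 1 FPKM lay 7 members, all with log2 ratios below 0 on the log2(FPKM + 1) scale. Of these, 3 (Actc1, Tnnt1 and Mylpf) were at least 2-fold lower on that scale and 0 at least 2-fold higher, against 1.36% and 0.767% of the 12259 genes above the same mean. Their median log2 ratio was -0.87 and that of all these genes -0.13. Below that mean lay 30 members with 10 or more fragments, of which 17 were at or below 0.5 of the control and 0 at or above 2-fold, against 15.7% and 14.1% of 3597 genes of that range. By plain ratio, 5 of the 7 more abundant members were at or below 0.5 as well. The 17 comprised 11 of 19 skeletal and 6 of 10 shared genes, and 0 of 1 cardiac gene.

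**Figure D1:**
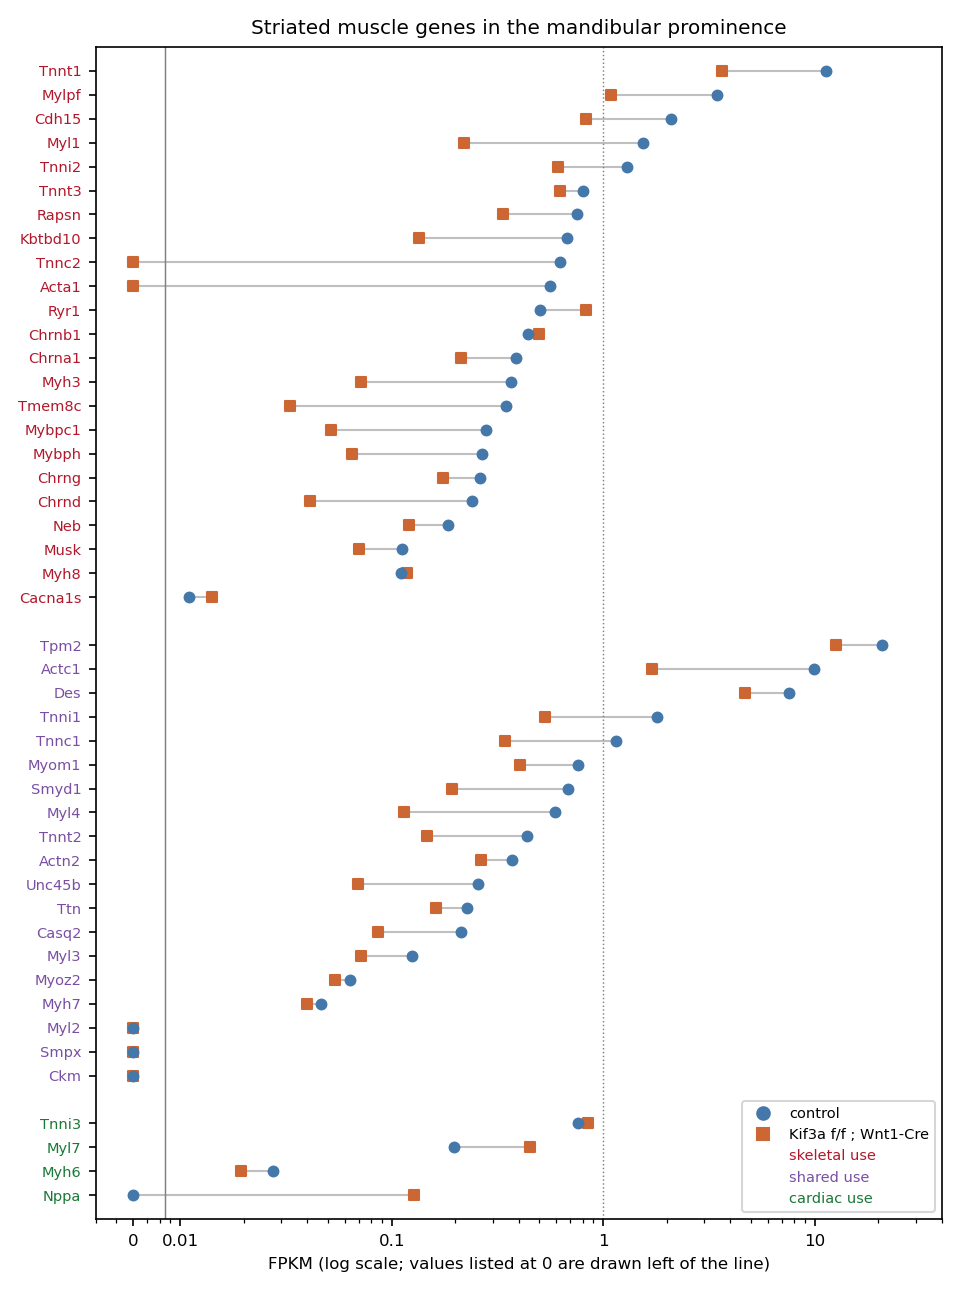
FPKM (horizontal log axis) of all 46 members in the control library (circles) and the Kif3a f/f ; Wnt1-Cre library (squares), grouped by use and ordered by control level; values listed at 0 are drawn left of the solid line and the dotted line marks 1 FPKM. In 36 members the mutant value lies left of the control value. In 7, of which 4 are of skeletal and 3 of cardiac use, it lies right. Of the cardiac genes only Tnni3 had 10 or more fragments, with a ratio of 1.12 (0.549 to 2.30).

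Thin filament genes held the most abundant members, and 8 of the 12 were at or below 0.5 of the control, with a median ratio of 0.328. Actc1, which encodes the alpha actin of the heart and of embryonic skeletal muscle, stood at 9.96 FPKM in control and 1.71 in mutant tissue, 5.84-fold lower (4.48 to 7.70). Acta1, the skeletal alpha actin that later replaces it, stood at 0.559 FPKM in the control, on about 18.7 fragments, and was listed at 0 in the mutant, where 3 fragments would have given 0.0763 FPKM. These actin genes are similar in their coding sequence to each other and to the smooth muscle actin Acta2, which stood at 10.8 and 3.09 FPKM. Some fragments may thus have been divided among them. Of the other smooth muscle markers only Tagln and Smtn passed a mean of 1 FPKM, at 2.85 and 3.24 and at 9.07 and 7.12 FPKM. Of all 8 smooth muscle markers 1, Acta2, was at or below 0.5 of the control and the other defining gene Myh11 stood at 0.0281 and 0.0793 FPKM. Summed over the 8, the levels were 23.6 and 14.3 FPKM, and their part in the actin values was not tested.

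The upstream sequences of the 3 members that were at least 2-fold lower above 1 FPKM are shown with that of Acta1, a choice made from their values. Each is the 250 bases before a RefSeq start on GRCm38.p6, read 5′ to 3′ on the gene's own strand. Capitals mark matches to the E-box CANNTG, the core bound by myogenic factors of the MyoD family. They also mark the CArG box, bound by serum response factor, and TATAAA, searched for the TATA box, which can place the start. The Actc1 window lies at chr2:114052876-114053125 on the minus strand, Tnnt1 at chr7:4515976-4516225 on the minus strand, Mylpf at chr7:127211358-127211607 on the plus strand and Acta1 at chr8:123894776-123895025 on the minus strand.
Actc1: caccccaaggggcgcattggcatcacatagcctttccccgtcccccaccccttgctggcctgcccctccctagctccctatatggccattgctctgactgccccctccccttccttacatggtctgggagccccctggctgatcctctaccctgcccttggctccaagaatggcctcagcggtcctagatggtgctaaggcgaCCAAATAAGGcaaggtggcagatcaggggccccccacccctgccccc
Tnnt1: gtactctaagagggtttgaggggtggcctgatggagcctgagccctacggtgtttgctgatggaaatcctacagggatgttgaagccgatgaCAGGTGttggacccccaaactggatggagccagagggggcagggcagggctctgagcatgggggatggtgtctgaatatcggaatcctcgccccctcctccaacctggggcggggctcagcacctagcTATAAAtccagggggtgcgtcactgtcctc
Mylpf: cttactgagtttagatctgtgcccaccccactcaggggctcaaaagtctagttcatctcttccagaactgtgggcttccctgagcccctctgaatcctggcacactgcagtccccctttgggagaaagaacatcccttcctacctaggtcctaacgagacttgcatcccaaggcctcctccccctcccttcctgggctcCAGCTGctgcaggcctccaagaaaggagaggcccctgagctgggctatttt
Acta1: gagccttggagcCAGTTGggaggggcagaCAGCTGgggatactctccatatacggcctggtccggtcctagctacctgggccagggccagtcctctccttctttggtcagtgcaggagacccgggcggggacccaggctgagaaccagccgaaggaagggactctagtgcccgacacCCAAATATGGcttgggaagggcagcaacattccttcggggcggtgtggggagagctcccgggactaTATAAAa

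The actin windows both held a CArG box, 47 bases before the start in Actc1 and 73 in Acta1, counted to the first base of the match. An E-box lay 158 bases before the start of Tnnt1 and 51 before that of Mylpf, where its letters were CAGCTG. Windows were found for 40 members, and both strands were searched. CAGCTG, which is a subset of CANNTG, occurred in 18 of the 40 (45%) and in 13% of 32851 windows of the same length, and CANNTG in 35 (87.5%) and 66.2%. The CArG box and the MEF2 site occurred in 5 members each (12.5%), against 1.47% and 2.92% of all windows, and TATAAA in 10 (25%) against 12.4%. CAGCTG was present in 8 of the 18 members with a window that were at or below 0.5 of the control and in 10 of the 22 others. These others include the members with fewer than 10 fragments and those listed at 0 in both libraries, so they are not all measured above 0.5. The RefSeq starts of Actc1 and Acta1 lie 64 and 39 bases from those of their most abundant deposited transcripts. A match is a stretch of letters and was not tested as a binding site.

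The troponin complex has a tropomyosin-binding, an inhibitory and a calcium-binding subunit, encoded by gene families whose members differ in use among slow, fast and cardiac muscle. Tnnt1, the slow skeletal troponin T, stood at 11.4 FPKM in control and 3.65 in mutant tissue, 3.12-fold lower (2.45 to 3.98). Tnni1, the slow troponin I that the embryonic heart also uses, stood at 1.79 and 0.532 FPKM, 3.37-fold lower (1.80 to 6.68). Tnnc1, the calcium-binding subunit of slow and cardiac muscle, stood at 1.15 and 0.343 FPKM, 3.34-fold lower (1.37 to 9.29). The 3 slow-type subunits thus differed by similar factors, and their intervals overlapped. Of the fast genes, Tnni2 stood at 1.30 and 0.611 FPKM, 2.13-fold lower (0.982 to 4.89). Tnnc2 stood at 0.623 FPKM in the control, on about 11.2 fragments, and was listed at 0 in the mutant, where 3 fragments would have given 0.158 FPKM. Tnnt3 stood at 0.802 and 0.625 FPKM, a ratio of 0.780 (0.378 to 1.58), so no difference was detectable at this depth.

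Genes of troponin T and troponin I lie in neighbouring pairs, and the members of 1 pair had different ratios. On GRCm38, Tnnt1 (chromosome 7, 4504663 to 4515975) lies next to Tnni3 (4518308 to 4522443), the cardiac troponin I. Tnni3 stood at 0.761 FPKM in control and 0.849 in mutant tissue, a ratio of 1.12 (0.549 to 2.30). This interval does not overlap that of Tnnt1 (0.251 to 0.408). Tnnt2, the cardiac troponin T that early skeletal muscle also expresses, stood at 0.436 and 0.146 FPKM, a ratio of 0.336 (0.0926 to 1.02). It lies beside Tnni1 on chromosome 1, from 135836386 to 135852261.

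The other thin filament genes had ratios above 0.5. Tpm2 (chromosome 4, 43514711 to 43523388), a tropomyosin of skeletal muscle that fibroblasts and smooth muscle also express, was the most abundant member at 20.7 and 12.7 FPKM, 1.64-fold lower (1.44 to 1.86). Its share of the summed level was 28.5% in the control and 38.7% in the mutant. As a ratio its interval was 0.537 to 0.695, above those of Actc1 (0.130 to 0.223) and Tnnt1. Neb, the giant nebulin that spans the thin filament, stood at 0.185 and 0.121 FPKM, a ratio of 0.652 (0.379 to 1.12).

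Thick filament genes were all under 4 FPKM, and 6 of the 8 with 10 or more fragments were at or below 0.5 of the control, with a median ratio of 0.219. Mylpf, the regulatory light chain of fast skeletal muscle, led them at 3.44 FPKM in control and 1.10 in mutant tissue, 3.14-fold lower (1.91 to 5.35). Myl1 (chromosome 1, 66924296 to 66945056), the essential light chain of fast muscle, stood at 1.55 and 0.219 FPKM, 7.06-fold lower (2.76 to 23.1). Myl4, the atrial light chain that embryonic skeletal muscle also makes, stood at 0.591 and 0.115 FPKM, 5.16-fold lower (1.36 to 28.8). All 3 intervals lay below the ratio of the median gene, and the mutant values of Myl1 and Myl4 rest on about 5.11 and 2.53 fragments.

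Among the myosin heavy chains, the embryonic isoform gene Myh3 (chromosome 11, 67078300 to 67102291) was the most abundant. It stood at 0.365 FPKM in control and 0.0717 in mutant tissue, 5.09-fold lower (2.75 to 10.1) on about 56.6 and 12.7 fragments. Myh8, the perinatal isoform, stood at 0.111 and 0.118 FPKM, a ratio of 1.06 (0.399 to 2.67), and Myh7, the slow and ventricular isoform, at 0.0465 and 0.0399, a ratio of 0.858 (0.257 to 2.87). At this depth no difference was detectable for either. Myh3 and Myh8 lie in a cluster of similar heavy chain genes on chromosome 11, and Myh6 and Myh7 side by side on chromosome 14. Fragments may thus have been divided among neighbours. The myosin-binding proteins Mybpc1 and Mybph, which cross-link the thick filament, stood at 0.279 and 0.267 FPKM in the control. They were 5.42-fold (1.92 to 17.4) and 4.10-fold (1.08 to 22.9) lower in the mutant, at 0.0515 and 0.0651 FPKM. Of the control level of Mybpc1, 0.158 FPKM came from a transcript of 357 bases on about 1.42 fragments. Its transcript of 3922 bases had a ratio of 0.421 (0.130 to 1.21), and by fragments Mybpc1 stood at 0.46 of the control. The size of its difference thus depends on the measure.

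**Figure D2:**
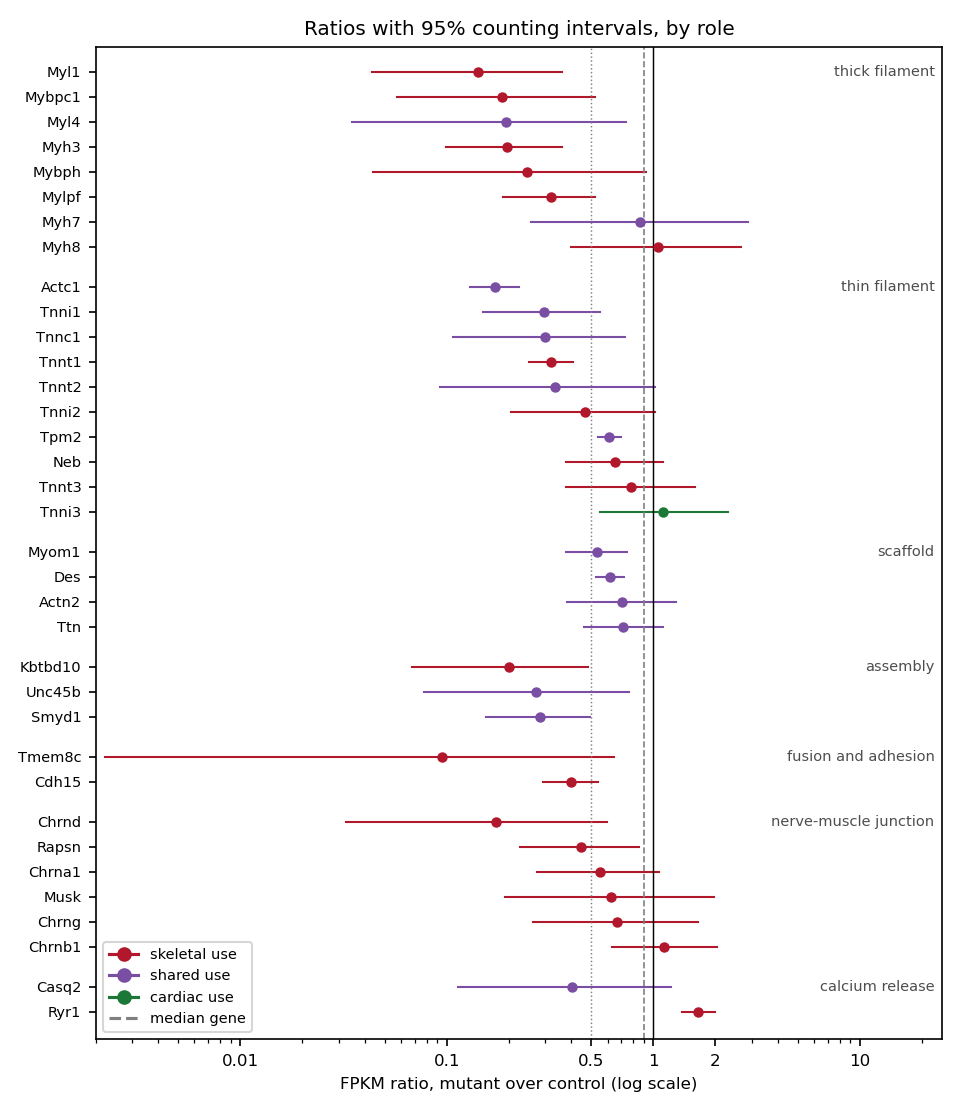
FPKM ratio of mutant over control (horizontal log axis) with 95% counting intervals (bars) for the 35 members with 10 or more fragments and a value above 0 in both libraries, by role and coloured by use; the dashed line marks the median of all genes with as many fragments (0.906) and the dotted line a ratio of 0.5. The assembly and fusion genes all lie left of 0.5 and the scaffold genes all lie right of it.

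Scaffold genes of the sarcomere had a median ratio of 0.659, and of the 4 with 10 or more fragments 0 were at or below 0.5 of the control. Des (chromosome 1, 75360344 to 75367715), the intermediate filament that links sarcomeres and that early myoblasts already carry, stood at 7.59 FPKM in control and 4.66 in mutant tissue, 1.63-fold lower (1.39 to 1.90). Myom1, which cross-links myosin at the M line, stood at 0.758 and 0.404 FPKM, a ratio of 0.533 (0.379 to 0.743). Actn2, the alpha-actinin of the Z disc, stood at 0.373 and 0.263, a ratio of 0.706 (0.381 to 1.29). Of the 3 genes that help build the sarcomere, all 3 were at or below 0.5 of the control. Smyd1, a methyltransferase that stabilizes myosin, stood at 0.684 and 0.194 FPKM, 3.53-fold lower (2.02 to 6.49). The myosin chaperone gene Unc45b stood at 0.256 and 0.0691 FPKM, 3.71-fold lower (1.31 to 12.9). Kbtbd10, a kelch protein of the growing myofibril, stood at 0.675 and 0.134 FPKM, 5.02-fold lower (2.08 to 14.7).

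Genes of myoblast adhesion and fusion were lower as well. Cdh15, the cadherin of myoblasts, stood at 2.08 FPKM in control and 0.831 in mutant tissue, 2.51-fold lower (1.86 to 3.43) on about 150.4 and 61.6 fragments. Tmem8c, the membrane protein that drives fusion, stood at 0.348 and 0.0330 FPKM, a ratio of 0.0949 (0.00222 to 0.642). The mutant value of Tmem8c rests on less than 1 fragment, so its ratio is loose.

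The subunits of the acetylcholine receptor, the channel through which motor nerves excite muscle, ranged from 5.80-fold lower to slightly above the control. Chrnd stood at 0.240 FPKM in control and 0.0413 in mutant tissue, 5.80-fold lower (1.68 to 30.9). Chrna1, the acetylcholine-binding subunit, stood at 0.387 and 0.213 FPKM, a ratio of 0.551 (0.273 to 1.07), and Chrng, the fetal subunit, at 0.262 and 0.175, a ratio of 0.666 (0.261 to 1.64). Chrnb1 stood at 0.439 and 0.496 FPKM, a ratio of 1.13 (0.631 to 2.05), and its interval lies above that of Chrnd (0.0324 to 0.596). Of the 6 genes of the nerve-muscle junction 2, Chrnd and Rapsn, were at or below 0.5 of the control. Rapsn, which clusters the receptors, stood at 0.754 and 0.336 FPKM, 2.24-fold lower (1.18 to 4.42). The kinase gene Musk, which organizes the junction, stood at 0.112 and 0.0698 FPKM, a ratio of 0.623 (0.192 to 1.97).

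Ryr1 (chromosome 7, 29003340 to 29125151), the calcium release channel of skeletal muscle, was the sole member with an interval wholly above 1. It stood at 0.503 FPKM in control and 0.829 in mutant tissue, a ratio of 1.65 (1.37 to 1.98) on about 187.8 and 315.3 fragments. Its main transcript has 15362 bases, and the ratio of mutant to control rose with transcript length over all genes. The median log2 ratio, taken without a pseudocount, ran from -0.33 in genes with a median length of 512.5 bases to 0.30 at 8649.5 bases. With this trend removed the log2 ratio of Ryr1 was 0.42 in place of 0.72. For transcripts longer than 8649.5 bases the trend was held at its value there, so at the length of Ryr1 it may be removed only in part. Casq2, which stores calcium in heart and slow muscle, stood at 0.213 and 0.0864 FPKM, a ratio of 0.405 (0.113 to 1.21). Cacna1s, the voltage sensor that opens Ryr1, gave about 1.78 and 2.22 fragments.

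The length trend touches this gene set, since troponins and light chains have short transcripts. With the trend removed, 20 of the 37 members with 10 or more fragments were at or below 0.5 of the control in place of 22, and 33 were below the control. Actc1 then had a log2 ratio of -2.27 in place of -2.55, Tnnt1 of -1.33 in place of -1.64 and Myl1 of -2.51 in place of -2.82, all without a pseudocount. The smaller differences shrank by a larger part. On the same scale Tpm2 stood at -0.41 in place of -0.71 and Des at -0.49 in place of -0.70.

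**Figure D3:**
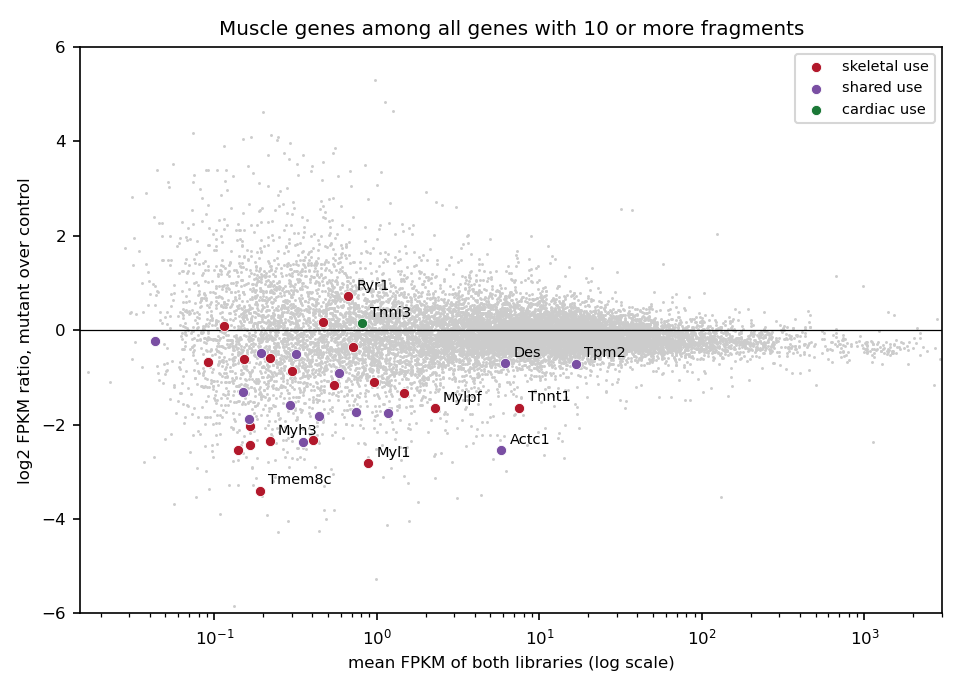
Log2 FPKM ratio of mutant over control without a pseudocount (vertical axis) against mean FPKM of both libraries (horizontal log axis) for 15799 genes with 10 or more fragments and a value above 0 in both libraries (grey) and the 35 members among them, coloured by use; 46 genes lie outside the plotted range. Actc1, at 9.96 and 1.71 FPKM, and Tnnt1, at 11.4 and 3.65, lie lower than Tpm2, at 20.7 and 12.7, and Des, at 7.59 and 4.66.

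The 4 cardiac genes had no common direction, 1 being below the control and 3 above it. Tnni3 was the sole cardiac member with 10 or more fragments. Myh6, the atrial myosin, stood at 0.0274 and 0.0194 FPKM on about 3.98 and 2.84 fragments, and Myl7, the atrial light chain, at 0.197 and 0.452 FPKM on about 3.03 and 6.56, a ratio of 2.29 (0.522 to 13.7). Nppa, the atrial peptide hormone, was listed at 0 in the control and gave about 2.15 fragments in the mutant. Among shared genes the ventricular light chain gene Myl2 was listed at 0 in both libraries, Myl3 gave about 2.91 and 0.973 fragments, and the Z disc gene Myoz2 about 1.90 in each. Bmp10, a marker of heart muscle, was also listed at 0 in both, and Gata4 stood at 0.0265 and 0.0526 FPKM, while Hand1, Smarcd3 and Nkx2-5 of the 11 heart markers passed a mean of 1 FPKM, at 26.6 and 35.6, 11.9 and 7.33, and 2.72 and 1.32 FPKM. The heart regulators Tbx5 and Tbx20 stood at 0.105 and 0.00823 FPKM and at 0.0889 and 0.279. Mandibular mesenchyme and pharyngeal tissue also express Hand1 and Nkx2-5.

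Single transcripts showed which RNAs lay behind the sums. The 3 transcripts of Tnnt1 differed alike, with ratios of 0.323 (0.224 to 0.459), 0.305 (0.194 to 0.466) and 0.344 (0.195 to 0.588) for those of 901, 937 and 934 bases. The 3 of Tpm2 had ratios from 0.519 to 0.738, with overlapping intervals. The more abundant of 957 bases stood at 11.2 and 5.79 FPKM, a ratio of 0.519 (0.422 to 0.636), the other of that length at 6.31 and 4.66, a ratio of 0.738 (0.576 to 0.944), and the one of 2098 bases at 3.25 and 2.22, a ratio of 0.683 (0.538 to 0.864). Myl1 has an upstream and an internal start. The transcript of 994 bases, from the upstream start, stood at 0.509 and 0.0906 FPKM. From the internal start, the transcript of 817 bases stood at 1.03 and 0.0642 FPKM and that of 654 bases at 0.00978 and 0.0640. The 3 rest on about 2.50, 1.46 and 1.16 fragments in the mutant, too few to order them.

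Ttn, the giant titin that runs from Z disc to M line, gave different directions by measure. Its sum stood at 0.227 FPKM in control and 0.161 in mutant tissue, a ratio of 0.710 (0.460 to 1.12). This sum is carried by a transcript of 2192 bases, at 0.198 and 0.137 FPKM on about 11.1 and 8.32 fragments, a ratio of 0.694 (0.242 to 1.89). The transcript of 81931 bases stood at 0.00961 and 0.0229 FPKM, a ratio of 2.39 (1.40 to 4.22) on about 20.2 and 51.95 fragments. Counted as fragments over all its transcripts, Ttn was 1.94-fold higher in the mutant, so no direction is given for this gene. Myh8 likewise stood at 1.06 of the control by FPKM and 0.730 by fragments.

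**Figure D4:**
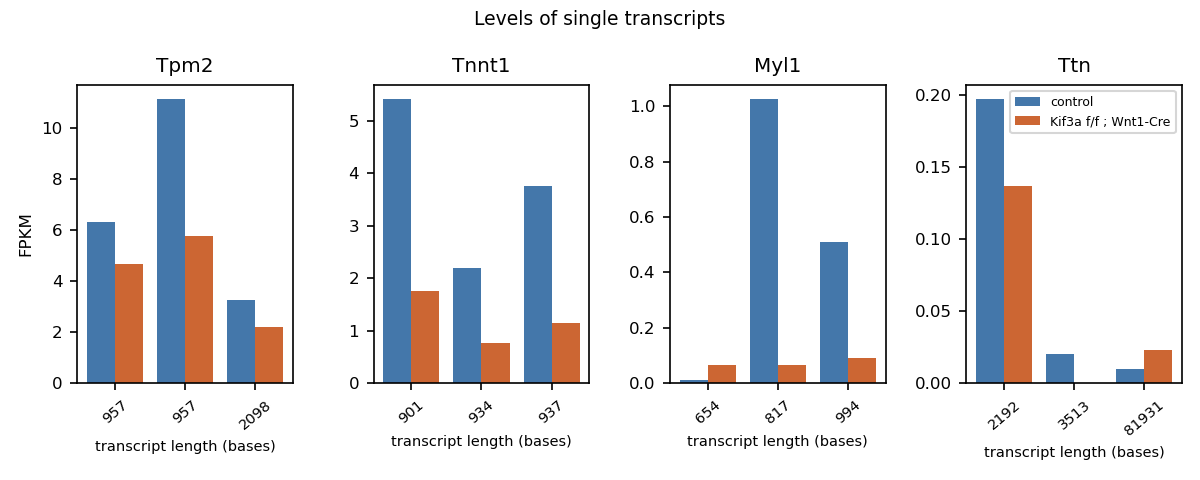
FPKM (vertical axis, from 0) of single deposited transcripts of Tpm2, Tnnt1, Myl1 and Ttn, labelled by length, in the control (left bar) and the Kif3a f/f ; Wnt1-Cre library (right bar); transcripts at or under 0.005 FPKM in both are not drawn. The 3 transcripts of Tnnt1 have ratios from 0.305 to 0.344, while the 81931-base transcript of Ttn is the higher one in the mutant, at 0.0229 against 0.00961 FPKM.

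A wider list of 71 muscle genes that are not members was less uniform. Of these, 32 had 10 or more fragments, with 19 below the control and 13 above it. At or below 0.5 of the control stood 6 and at or above 2-fold 1, and their median ratio was 0.819. Of all 15856 genes with as many fragments, 64.6% lay below the control, 5.75% at or below 0.5 and 4.41% at or above 2-fold. The count below the control was thus no higher than the share over all genes. Among the 24 with 20 or more fragments the lowest were Tmod1, which caps thin filaments, at 1.27 and 0.451 FPKM, the Z disc gene Pdlim3 at 4.01 and 1.55, the fast alpha-actinin gene Actn3 at 1.30 and 0.600, and the calcium pump gene Atp2a1 at 0.616 and 0.291. Stac3, a partner of the voltage sensor, followed at 0.520 and 0.371. The highest were Casq1 at 0.235 and 0.470 FPKM, Ryr3 at 0.172 and 0.309, Lrp4 at 4.66 and 7.59, Tmod4 at 0.964 and 1.25, and Eno3 at 27.4 and 33.9. The most abundant, Tpm1, which many cell types express, stood at 163 and 140 FPKM.

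Regulators that act before the contractile genes gave a graded picture. Myog stood at 5.78 and 0.488 FPKM, a ratio of 0.0845 (0.0506 to 0.134), and Myod1 at 3.89 and 0.636, a ratio of 0.163 (0.107 to 0.241). Myf5, an earlier regulator, stood at 1.19 and 0.721 FPKM, a ratio of 0.604 (0.400 to 0.904), and its interval lies above both of theirs, while Myf6, a late one, was listed at 0 in both libraries. Other cell types differed between the pools too: all 6 measured erythroid markers were at or below 0.5 of the control, with Hbb-y at 13483 and 3572 FPKM, and all 5 endothelial markers were lower, with Cldn5 at 12.8 and 7.02. Of 6 neuronal markers with 10 or more fragments 3 were at or below 0.5 of the control, among them the neurofilament gene Nefm at 1.41 and 0.268 FPKM, and 2 were above it, among them Isl1 at 5.53 and 9.62 FPKM. Schwann cell markers were mixed, with Sox10 at 1.08 and 0.415 FPKM and Erbb3 at 3.93 and 3.97. Of 7 oral epithelium markers 5 were above the control, and their summed level was 121.9 and 137.1 FPKM. The part of these differences in the muscle values was not tested.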

How the data were processed

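RNA from 2 pooled samples, 1 per group, was sequenced. For each library the authors deposited a table of 59120 transcripts which, per the file headers, gives a length, a coverage signal and an FPKM. The names of the tables give Cufflinks as the tool. The sources used here give neither its version nor the aligner. The build named in the submitters' processing notes is mm9, but 72.1% of 45475 transcripts shared a start or end with GENCODE M21 on GRCm38, and all 46 members overlapped their RefSeq gene there, so coordinates are GRCm38, with 1 added to the deposited starts. Left out were 65 lines of each table whose columns are displaced.

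FPKM was summed per gene symbol. Fragments were approximated as coverage times length divided by the bases per fragment, 156 (control) and 153.3 (mutant). These are medians over genes with 1 transcript over 1500 bases, limited to values from 80 to 220. Levels with a mean of 1 FPKM or more were compared as log2(FPKM + 1), lower ones as plain ratios with at least 10 fragments. No p-value was computed. Code (Python 3.11.15, SciPy 1.17.1) was tested on simulated data. Members and lists were chosen with earlier results of these data known. Values are given for each member with 10 or more fragments, and of the other muscle genes for the 5 lowest and 5 highest ratios among those with 20 or more fragments and the most abundant. Alternatives were other pseudocounts, filters, scalings, removal of the length trend, the most abundant transcript alone and, added after seeing the data, summed fragments.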

Additional observations from a re-analysis of the deposited data

How the results depend on the processing

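Under all alternatives run, 0 members above the level filter were 2-fold higher, and all 67 recomputed log2 ratios of single members above it were below 0. The count of 2-fold lower members, 3 of 7 as reported, was 5 with a pseudocount of 0.1 and 1 with a pseudocount of 5. It was 4 of 46 with no filter, 2 of 4 above a mean of 5 FPKM, and 2 or 3 of 7 otherwise. The median log2 ratio of the members above the filter, -0.87 as reported, was -1.56 and -0.47 with pseudocounts of 0.1 and 5. It was -0.24 over all 46 members with no filter and -1.04 above a mean of 5 FPKM. After centring on the median gene it was -0.74, and with the length trend removed -0.58. Of the low members, 17 were at or below 0.5 of the control; with at least 20 fragments it was 9 of 20, fewer members being compared, and otherwise 15 to 17. Scaling to the 75th percentile or to the sum without short transcripts raised ratios taken without a pseudocount by 0.14 or 0.27 (log2), and those on the log2(FPKM + 1) scale by less. With at least 5 fragments 1 low member, Myl7, stood at or above 2-fold. No paired analysis was possible because each group has 1 library. Leaving out a replicate was not possible for the same reason. Depth limits the low members: many mutant values rest on under 10 fragments.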

Other observations

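The transcripts to which fragments of a gene were assigned differed between the libraries for several low members. Of 16 deposited transcripts of the fast troponin T gene Tnnt3, 3 exceeded 0.1 FPKM in control and 2 in mutant tissue, and 0 exceeded it in both. Myom1 had a transcript of 5319 bases at 0.224 FPKM in control and 1.95e-05 in mutant tissue, while that of 5613 bases stood at 0.483 and 0.341. Smyd1 had a transcript of 3322 bases at 0.304 FPKM in control and 6.56e-06 in mutant tissue, while that of 3361 bases stood at 0.381 and 0.194.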
